A study of Mus musculus with 8 samples.

Results

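The genes described here build the kinetochore, run the spindle assembly checkpoint or encode mitotic kinases and the anaphase trigger. They were the rows of the deposited expression table whose symbol begins with Cenp followed by a letter, or matches one of 33 further names. The rule gave 53 genes of the 17634 in the table: 21 Cenp genes and 32 of the 33 names. The name Sgol1 matched no symbol, and Sgo1, which carries that older name in RefSeq, was kept out of every count. The 8 libraries, 4 wild type and 4 miR-29ab1-/-, are TRIzol RNA of C57BL/6N mice, from crypts of the small intestine collected on day 3 after irradiation. Both genotypes were irradiated, so no comparison here is with unirradiated tissue. The miR-29ab1 locus holds the genes of miR-29a and of one of the gene copies of miR-29b. The labels used here give no dose, age, sex or diet, and do not say whether the deletion is present in every cell. The microRNA genes themselves were not analysed here, so no value checks the genotype labels directly. The question set by the series title is how miR-29a and miR-29b bear on the fate of intestinal stem cells.

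The kinetochore is the protein assembly that joins each chromosome to the microtubules of the mitotic spindle. Its inner layer sits on nucleosomes that carry the histone variant CENP-A, and its outer layer, made of the KNL1, MIS12 and NDC80 complexes, binds microtubules. The spindle checkpoint holds back anaphase until every kinetochore is attached, by keeping Cdc20 from activating the anaphase-promoting complex, the ubiquitin ligase that releases separase. In the crypt these transcripts belong mostly to dividing stem and progenitor cells, since most of them are made in late S, G2 and M phase and are low in resting cells.

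Transcripts of these genes were lower in knockout crypts, and each of the 8 roles they were sorted into held at least 2 genes that fell. Of the 53 genes, 46 fell and 0 rose (quasi-likelihood test of edgeR, Benjamini-Hochberg adjusted p under 0.05 over 12908 genes), while 23.1 percent of all tested genes were called lower and 24.2 percent higher. All 53 genes passed the filter on low counts, and all 53 had a log2 fold change below 0. At an unadjusted p under 0.05 the counts were also 46 lower and 0 higher, and DESeq2 called 46 lower and 0 higher. The median log2 fold change was −1.05, a 2.08-fold lower level, against 0.034 for all tested genes. Calls that were at least 2-fold lower made up 30 of the 53 genes (56.6 percent) and 542 of all tested genes (4.2 percent). In 45 genes every knockout library lay below every wild-type library, which held for 22.7 percent of all tested genes. The called genes ranged from log2 −1.47 (Cenps) to −0.44 (Cenpx), with edgeR adjusted p-values from 0.00104 to 0.0425. The 7 genes that did not pass the test were Cenpt, Cenpl, Cenpb, Cenpc1, Cenpj, Cenpv and Pttg1. Levels are given as CPM, counts scaled to the size of the library with TMM factors, and folds as wild type over knockout unless a log2 value is named, which is knockout over wild type.

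**Figure D1:**
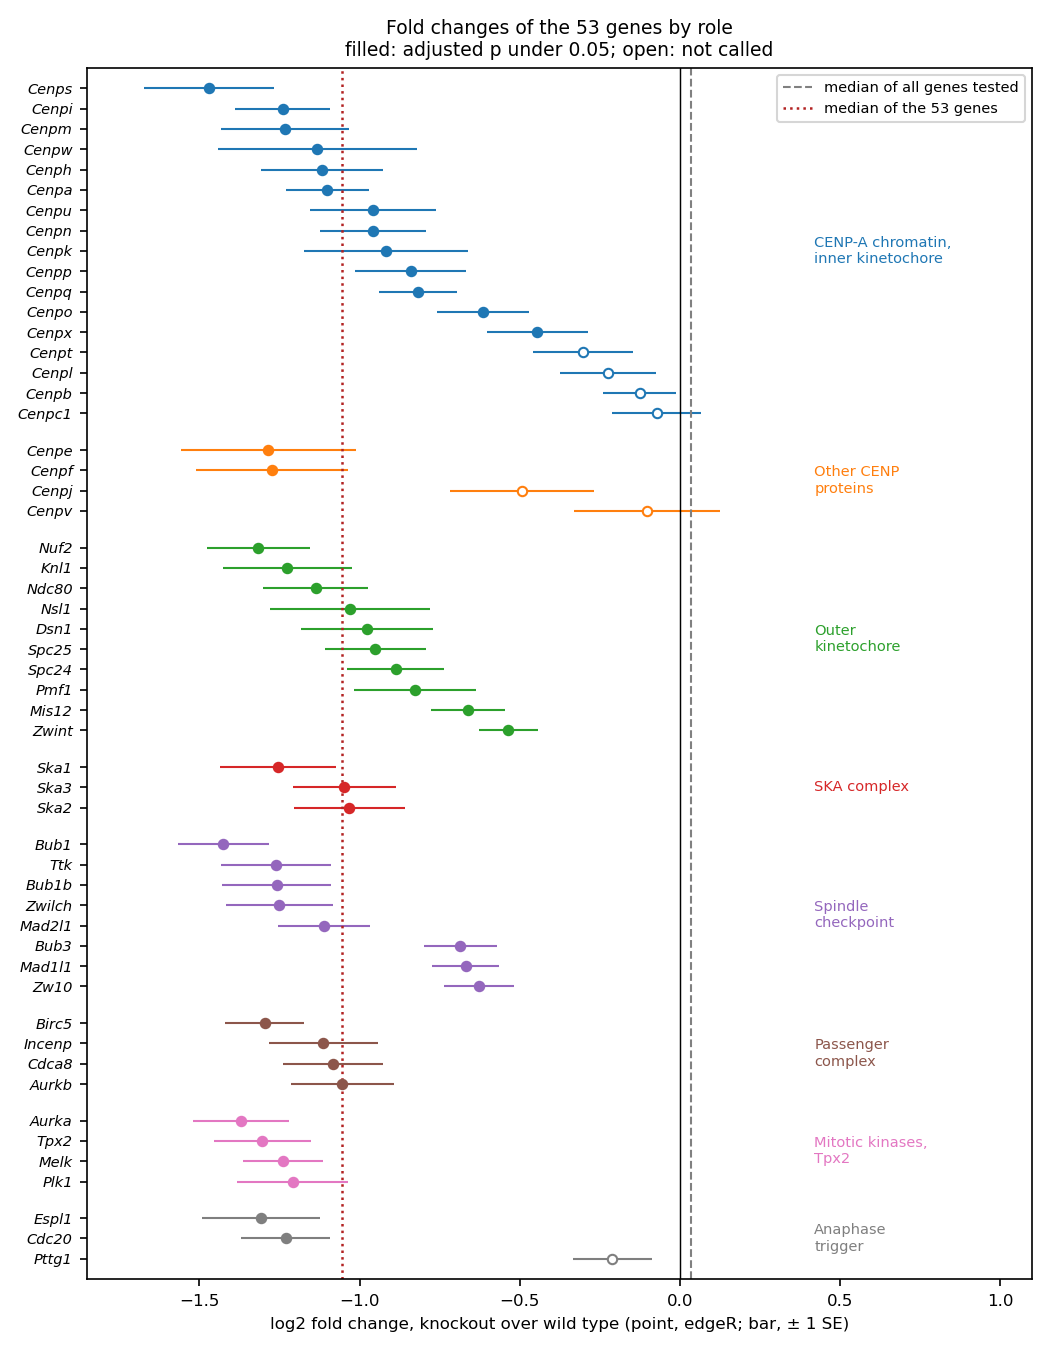
Log2 fold change of knockout over wild type for each of the 53 genes (x axis, edgeR estimate ± 1 SE, 4 libraries per genotype), grouped by role on the y axis; filled points passed the test and open points did not. The 46 filled points lie at or below −0.44, and the dotted line, the median of the 53 genes at −1.05, is left of the dashed median of all tested genes at 0.034.

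The scaling of the libraries moves every fold. With total counts in place of TMM factors, the median of all tested genes went from 0.034 to −0.23 and the split of called genes from 2976 lower and 3129 higher to 4011 lower and 2089 higher. The 53 genes then had a median of −1.31, and 50 were called lower. Cenpb, Cenpl, Cenpt and Pttg1 were the 4 added, so whether these 4 count as lower turned on the scaling. Deposited FPKM values are scaled by library totals and carry the same shift.

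Libraries differed from each other in ways the genotype does not give. Library totals ran from 9481201 to 16231099 counts. Replicate 4 of each genotype had almost no counts of 4 Y-linked genes (3 in the wild-type library and 1 in the knockout library), whereas the 6 libraries of replicates 1 to 3 had 1285 to 2061. By these counts replicate 4 of each genotype reads as female and replicates 1 to 3 hold male RNA, though no label gives the sex. In replicates 1 to 3 alone, 43 of the 53 genes fell, with a median of −1.15. Crypts hold several cell types, and in bulk RNA fewer dividing cells and less RNA of these genes per cell cannot be told apart. All 15 enterocyte markers rose, with 2779.7 to 13194 summed CPM in wild type and 31218 to 100808 in the knockout. Of the 9 crypt base stem markers 6 fell, with 940.0 to 1273 summed CPM in wild type and 598 to 1045 in the knockout. These sums include Olfm4, which was not called and had a log2 fold change of 0.47. Olfm4 ran over 165 to 512 CPM in wild type and 191 to 574 CPM in the knockout. Paneth cell markers gave 8949 to 13013 summed CPM in wild type and 9740.0 to 30671 in the knockout, with 0 of 6 called by edgeR, and of 6 epithelial markers 2 rose and 1 fell. Of the fibroblast and smooth muscle markers 6 of 11 were tested and 1 rose; their sum was high in wild-type replicate 3 (169 CPM) and in knockout replicates 3 and 4 (192 and 202), and 14.3 to 49.1 in the other 5. Without those 3 libraries 44 of the 53 genes fell, with a median of −1.20. T cell markers gave 44.7 to 440.2 summed CPM in wild type and 197 to 1565 in the knockout, with 0 of 8 called by edgeR. Of 8 myeloid markers 1 fell, and none of 2 B cell and 3 endothelial markers tested was called. No marker of any list was at 0 in all 8 libraries. What part these cell types have in the fall of the 53 genes was not tested.

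Sequences of the microRNAs of the deleted locus are shown with their seed, bases 2 to 8, in capitals. The seed defines the match looked for in the 53 transcripts. The locus holds only 1 of the gene copies of miR-29b, so miR-29b-3p need not be absent from the knockout. The sequences are mature forms from RefSeq on GRCm38.p6, at chr6:31062673-31062694 and chr6:31063025-31063047, both on the minus strand.
miR-29a-3p: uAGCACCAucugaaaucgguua
miR-29b-3p: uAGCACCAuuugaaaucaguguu
The seed is the same in both, and also in miR-29c-3p, whose gene lies on chromosome 1. Its complement, TGGTGCT, was found in the longest annotated 3′ UTR (GENCODE M21, GRCm38) of 6 of the 53 genes (11.3 percent), against 15.5 percent of the 12648 tested genes with such a UTR. Aurkb, Cenpf, Ska2 and Tpx2 held 1 match each, and Mad2l1 and Nsl1 held 2. All 6 were lower in the knockout, with a median log2 fold change of −1.08, and the other 47 had a median of −1.05. The 3′ UTRs of the 53 genes were short, with a median of 603 bases against 1164 for tested genes. The matches in the checkpoint gene Mad2l1, the kinase gene Aurkb and the Aurora A activator gene Tpx2 are printed with the seed match in capitals.
Mad2l1, chr6:66541064-66541086, plus strand: ctttgatatttagttTGGTGCTa
Aurkb, chr11:69051343-69051365, plus strand: aattctagcactacaTGGTGCTc
Tpx2, chr2:152894193-152894215, plus strand: catgttctttattgtTGGTGCTg
The match in Mad2l1 that is not printed, 1 of the matches in Nsl1 and the only match in Ska2 lie past the end RefSeq gives these genes, which leaves 5 genes with a match inside it. A match of these letters does not show that the microRNA binds there.

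Promoter sequence was read because the genes moved together. Promoters of late cell-cycle genes are known for a CHR element, bound by the DREAM and MuvB complexes, and for CCAAT boxes, bound by NF-Y. The 53 genes were picked by function and mostly belong to that class. More of these motifs than in other genes may come from that choice alone. RefSeq windows from 250 bases before to 50 after the start were at hand for 46 of the 53 genes. They were searched on both strands for CHR (TTTGAA or TTCGAA), for CCAAT and for an E2F site (TTTCCCGC, TTTGGCGC, TTTCGCGC or TTTGCCGC). A CHR was found in 21 of the 46 genes (45.7 percent), in 16.8 percent of 10299 tested genes and in 19.2 percent of all 32851 windows. Among called genes 20 of 39 held one, and of the 7 uncalled genes only Cenpl did. Of all tested genes called lower, 19.3 percent held a CHR. CCAAT was found in 28 of the 46 genes (60.9 percent), in 43.1 percent of tested genes and in 37.4 percent of all windows. Both stood in the same window in 17 genes (37.0 percent), against 7.05 percent of tested genes and 7.52 percent of windows. Among all tested genes called lower the share with both was 9.63 percent. E2F letters were found in 5 genes (10.9 percent), against 4.54 percent of tested genes and 2.26 percent of windows. They stood in 3 of the 39 called genes (7.69 percent) and in 2 of the 7 uncalled ones. Of all tested genes called lower, 7.69 percent held them too. The median log2 fold change was −1.14 in the 21 genes with a CHR and −0.84 in the 25 without. Their ranges were much alike, −1.43 to −0.22 with a CHR and −1.47 to −0.07 without. Cenps, with the largest fold of the 53 genes, held no CHR in its window. What part these motifs have in the fall was not tested. Motifs may overlap, as in Cenpw, where a CHR and a CCAAT share a base.

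**Figure D2:**
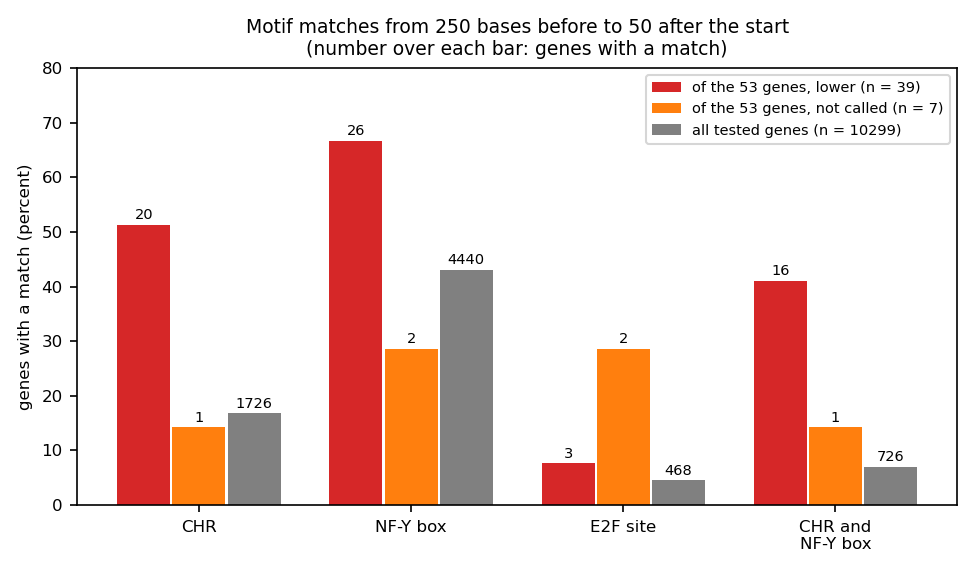
Percent of genes (y axis) whose promoter window holds each motif (x axis; the NF-Y box is CCAAT), for 39 genes that fell, 7 that did not pass the test and 10299 tested genes, with the number of genes above each bar. CHR and CCAAT stand together in 16 of the 39 genes that fell (41.0 percent), against 7.05 percent of tested genes.

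To show how the windows differ, the 150 bases before the start of 5 genes are printed with motif matches in capitals: Cdc20 (chr4:118437344-118437493, minus strand), Bub1 (chr2:127831860-127832009, minus strand), Plk1 (chr7:122159285-122159434, plus strand), Birc5 (chr11:117849087-117849236, plus strand) and Cenpb (chr2:131180068-131180217, minus strand), all on GRCm38.p6. The first 3 were chosen as called genes with CCAAT boxes, Birc5 as a called gene with no match, and Cenpb as a gene that did not pass the test.
Cdc20: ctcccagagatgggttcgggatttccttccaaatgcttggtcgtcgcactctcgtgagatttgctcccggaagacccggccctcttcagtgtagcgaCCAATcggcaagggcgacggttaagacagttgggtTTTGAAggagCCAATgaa
Bub1: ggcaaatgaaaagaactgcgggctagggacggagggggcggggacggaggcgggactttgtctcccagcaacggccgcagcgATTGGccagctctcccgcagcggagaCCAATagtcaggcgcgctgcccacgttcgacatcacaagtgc
Plk1: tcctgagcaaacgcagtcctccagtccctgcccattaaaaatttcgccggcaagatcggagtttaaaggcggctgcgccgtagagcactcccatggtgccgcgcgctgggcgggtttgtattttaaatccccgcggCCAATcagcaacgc
Birc5: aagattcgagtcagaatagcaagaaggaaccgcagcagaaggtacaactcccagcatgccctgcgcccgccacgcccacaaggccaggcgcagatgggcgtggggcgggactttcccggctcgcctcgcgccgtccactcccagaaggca
Cenpb: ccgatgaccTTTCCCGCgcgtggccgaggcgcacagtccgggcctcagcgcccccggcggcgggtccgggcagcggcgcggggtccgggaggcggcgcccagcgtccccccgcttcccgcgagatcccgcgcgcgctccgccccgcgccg
In Cdc20 the CHR begins 18 bases before the start, between CCAAT boxes that begin 53 and 8 bases before it. Bub1 has CCAAT boxes on opposite strands, 68 and 42 bases before the start, and Plk1 has one 14 bases before it; their CHR matches lie after the start, outside the stretch shown. The capitals in Cenpb are an E2F site. No match says only that these letters are not in the window.

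At the inner kinetochore, the group of 17 genes on CENP-A chromatin, 13 fell and 4 did not pass the test, with a median log2 fold change of −0.92. Cenpa, the histone variant that marks the centromere (NCBI gene 12615, chr5:30666877-30674837), stood at 63.7, 62.2, 50.3 and 64.97 CPM in wild-type replicates 1 to 4 and at 23.7, 31.2, 26.8 and 30.8 CPM in knockout replicates 1 to 4. Every knockout library was below every wild-type one, and the level was lower by 2.14-fold (log2 −1.10 ± 0.13 SE) with an edgeR adjusted p of 0.00108. Cenpi, a member of the CENP-H/I/K complex, stood at 21.1, 20.8, 19.8 and 19.1 CPM in wild-type replicates 1 to 4 and at 6.61, 8.84, 9.57 and 9.17 CPM in knockout replicates 1 to 4. It fell 2.36-fold (log2 −1.24 ± 0.15 SE), with little spread among wild-type libraries. Cenps, which pairs with Cenpx and also serves with it in the Fanconi anaemia pathway, had the largest fold of the 53 genes. It stood at 13.6, 12.1, 10.6 and 12.2 CPM in wild-type replicates 1 to 4 and at 3.09, 4.95, 4.19 and 5.24 CPM in knockout replicates 1 to 4, a fall of 2.77-fold (log2 −1.47 ± 0.20 SE). Its partner Cenpx stood at 46.9, 42.8, 34.8 and 40.4 CPM in wild-type replicates 1 to 4 and at 26.4, 39.4, 28.7 and 26.6 CPM in knockout replicates 1 to 4, and its groups overlapped because knockout replicate 2 reached into the wild-type range. Cenpx was lower by only 1.36-fold (edgeR adjusted p = 0.0425), and lost its call in 6 of the 8 fits that left out a library, all but those without wild-type replicate 3 or knockout replicate 2 (edgeR adjusted p up to 0.157 over all alternatives).

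The other inner kinetochore genes that fell did so by 1.53-fold to 2.35-fold, which covers Cenpm, Cenpw, Cenph, Cenpu, Cenpn, Cenpk, Cenpp, Cenpq and Cenpo. Cenph and Cenpk, partners of Cenpi, fell 2.17-fold and 1.89-fold. Cenpo, Cenpp, Cenpq and Cenpu, which form one complex, fell 1.53-fold, 1.79-fold, 1.76-fold and 1.94-fold. Cenpk and Cenpw, at 9.03 to 11.2 CPM in wild type and 3.26 to 7.51 CPM in the knockout and at 5.98 to 12.2 CPM in wild type and 2.62 to 5.66 CPM in the knockout, were thinly read, and neither passed the test in replicates 1 to 3 alone or without the 3 libraries of high fibroblast sums. Exons of Cenpu, Cenpo and Cenpp overlap exons of Primpol (912 bases), Adcy3 and Ptrhd1 (921 and 252 bases) and Ippk (315 bases) on the opposite strand. Those of Cenpq overlap 95 bases of Mut, also on the opposite strand. Of the inner kinetochore genes that did not pass the test, Cenpb overlaps 20 bases of Spef1 on the same strand. Cenpt overlaps 4 bases of Tsnaxip1 on the opposite strand. The strand setting of the count is not given, so reads from these stretches cannot be told apart.

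Cenpb, Cenpc1, Cenpt and Cenpl were the 4 inner kinetochore genes that did not pass the test. Cenpb, which binds a sequence box in centromere repeats, stood at 217, 198, 177 and 206 CPM in wild-type replicates 1 to 4 and at 183, 202, 178 and 169 CPM in knockout replicates 1 to 4. The groups overlapped, with a log2 difference of −0.13 ± 0.11 SE (edgeR adjusted p = 0.387). Cenpc1, which ties CENP-A nucleosomes to the outer kinetochore, stood at 27.1, 22.9, 28.4 and 26.1 CPM in wild-type replicates 1 to 4 and at 21.2, 21.5, 28.02 and 28.7 CPM in knockout replicates 1 to 4. Its difference of −0.07 ± 0.14 SE was the smallest of the 53 (edgeR adjusted p = 0.694), and it passed the test in 0 of 19 settings. Cenpt, which recruits the NDC80 complex and forms a histone-fold pair with Cenpw, differed by log2 −0.30 ± 0.16 SE and ran over 18.7 to 21.99 CPM in wild type and 13.8 to 21.6 CPM in the knockout, with an edgeR adjusted p of 0.138. Cenpt passed the test when knockout replicate 4, its highest knockout library, was left out (log2 −0.48, edgeR adjusted p = 0.0315). Cenpl, the partner of Cenpn, differed by log2 −0.22 ± 0.15 SE over 10.6 to 13.7 CPM in wild type and 9.07 to 10.98 CPM in the knockout (edgeR adjusted p = 0.245). The fold differences between these genes and their partners were not tested.

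The remaining Cenp genes, 2 of 4 of which fell, work outside the inner kinetochore. Cenpe, a kinesin motor that brings chromosomes to the spindle equator, stood at 75.8, 63.8, 83.8 and 110.1 CPM in wild-type replicates 1 to 4 and at 20.5, 27.4, 41.5 and 47.6 CPM in knockout replicates 1 to 4. It fell 2.44-fold (log2 −1.28 ± 0.27 SE), and wild-type replicate 4 and knockout replicate 4 were the highest of their groups. Cenpf, a large coiled-coil protein of the kinetochore corona and nuclear envelope, fell 2.42-fold (log2 −1.27 ± 0.24 SE) over 47.7 to 71.7 CPM in wild type and 15.96 to 36.3 CPM in the knockout. Their edgeR adjusted p-values were 0.00480 and 0.00283. Cenpj, which is a centriole protein despite its name, ran over 8.53 to 11.8 CPM in wild type and 5.22 to 10.1 CPM in the knockout and did not pass the test (log2 −0.49, edgeR adjusted p = 0.0980); it passed with a replicate block (edgeR adjusted p = 0.0435) and without knockout replicate 3 (edgeR adjusted p = 0.0178). Cenpv, which takes part in spindle midzone formation, stood at 55.1, 58.8, 47.8 and 45.9 CPM in wild-type replicates 1 to 4 and at 47.6, 73.4, 37.9 and 34.1 CPM in knockout replicates 1 to 4. Knockout replicate 2 was the highest of all 8 libraries for Cenpv and replicate 4 the lowest, and the difference of log2 −0.10 ± 0.23 SE did not pass the test (edgeR adjusted p = 0.733). Without knockout replicate 2 it passed (log2 −0.43, edgeR adjusted p = 0.0446), and without knockout replicate 4 its log2 difference was above 0.

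All 10 outer kinetochore genes fell, with a median log2 fold change of −0.96 and no overlap between the genotypes in any of them. Nuf2 and Ndc80 are the microtubule-binding pair of the NDC80 complex. Nuf2 stood at 38.8, 42.2, 33.3 and 43.4 CPM in wild-type replicates 1 to 4 and at 11.9, 17.9, 14.96 and 18.5 CPM in knockout replicates 1 to 4 and fell 2.49-fold (log2 −1.32 ± 0.16 SE). Ndc80 stood at 24.9, 21.2, 19.7 and 23.6 CPM in wild-type replicates 1 to 4 and at 8.32, 12.2, 8.78 and 11.3 CPM in knockout replicates 1 to 4 and fell 2.20-fold (log2 −1.14 ± 0.16 SE). Spc24 and Spc25, the pair that anchors this complex, fell 1.85-fold and 1.93-fold. Knl1, the scaffold that docks Bub1 and Bub3, stood at 30.5, 28.8, 34.6 and 45.4 CPM in wild-type replicates 1 to 4 and at 11.2, 13.8, 15.4 and 19.4 CPM in knockout replicates 1 to 4, and wild-type replicate 4 stood out as the highest. It fell 2.34-fold (log2 −1.23 ± 0.20 SE). In the MIS12 complex, Dsn1 and Nsl1 fell 1.97-fold and 2.04-fold and Pmf1 and Mis12 1.77-fold and 1.58-fold. Zwint, a partner of Knl1, had the smallest fold of this group at 1.45-fold, over 61.9 to 71.5 CPM in wild type and 42.99 to 49.9 CPM in the knockout. EdgeR adjusted p-values of the 10 ran from 0.00108 to 0.00895. Exons of Mis12 overlap 231 bases of Derl2 on the opposite strand.

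The SKA complex, which keeps kinetochores on shrinking microtubule ends, fell as a whole, in 3 of 3 genes. Ska1 stood at 13.4, 12.4, 11.1 and 13.7 CPM in wild-type replicates 1 to 4 and at 4.72, 6.36, 4.29 and 5.80 CPM in knockout replicates 1 to 4, a fall of 2.39-fold (log2 −1.25 ± 0.18 SE). Ska2 and Ska3 were lower by 2.05-fold (log2 −1.03 ± 0.17 SE) and 2.07-fold (log2 −1.05 ± 0.16 SE). Their ranges did not overlap either, at 13.1 to 14.98 CPM in wild type and 5.30 to 8.05 CPM in the knockout for Ska2 and at 24.2 to 26.01 CPM in wild type and 8.75 to 14.3 CPM in the knockout for Ska3. Exons of Ska3 overlap 78 bases of Sap18 on the opposite strand.

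All 8 spindle checkpoint genes fell, with a median log2 fold change of −1.18, no overlap between genotypes and edgeR adjusted p-values from 0.00108 to 0.00211. Bub1, the kinase that starts checkpoint assembly on Knl1 (chr2:127800197-127831859), stood at 44.5, 50.2, 49.2 and 51.8 CPM in wild-type replicates 1 to 4 and at 13.7, 18.03, 20.5 and 20.6 CPM in knockout replicates 1 to 4. It fell 2.69-fold (log2 −1.43 ± 0.14 SE), the largest fold of this group and the second of the 53 genes after Cenps. Mad2l1 encodes Mad2, the protein that captures Cdc20, and stood at 76.7, 104, 75.4 and 80.8 CPM in wild-type replicates 1 to 4 and at 34.2, 45.4, 35.6 and 40.8 CPM in knockout replicates 1 to 4. It fell 2.16-fold (log2 −1.11 ± 0.14 SE), with wild-type replicate 2 and knockout replicate 2 the highest of their groups. Zwilch, a subunit of the RZZ complex that brings Mad1 and Mad2 to kinetochores, stood at 34.1, 34.4, 32.5 and 38.5 CPM in wild-type replicates 1 to 4 and at 10.1, 15.1, 16.1 and 17.4 CPM in knockout replicates 1 to 4. It fell 2.38-fold (log2 −1.25 ± 0.17 SE), while Zw10, a subunit of the same complex that also serves in vesicle traffic, fell 1.54-fold (log2 −0.63 ± 0.11 SE). Ttk (Mps1 kinase) and Bub1b (BubR1) each fell 2.39-fold. Smaller folds were found for Bub3, at 110.4 to 133 CPM in wild type and 68.8 to 88.04 CPM in the knockout (1.61-fold), and Mad1l1, at 32.2 to 38.3 CPM in wild type and 20.2 to 23.6 CPM in the knockout (1.59-fold). The 8 genes thus held 5 that fell at least 2-fold and 3, Bub3, Mad1l1 and Zw10, that fell less. Exons of Zwilch overlap 254 bases of Lctl on the opposite strand.

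The chromosomal passenger complex, which corrects faulty attachments, fell in 4 of 4 genes, each at least 2-fold, with edgeR adjusted p-values from 0.00104 to 0.00145. Birc5 (survivin), its centromere-targeting subunit (chr11:117849237-117855743), stood at 108, 102, 90.9 and 104 CPM in wild-type replicates 1 to 4 and at 33.7, 46.2, 39.8 and 45.00 CPM in knockout replicates 1 to 4. It fell 2.46-fold (log2 −1.30 ± 0.12 SE) and had the smallest p of the 53 genes. Incenp, the scaffold, stood at 110.4, 104, 115 and 126 CPM in wild-type replicates 1 to 4 and at 37.2, 49.6, 58.2 and 65.96 CPM in knockout replicates 1 to 4 and fell 2.16-fold (log2 −1.11 ± 0.17 SE). The wild-type libraries of both genes lay close together, and the knockout libraries were more spread relative to their mean. Cdca8 (borealin) stood at 97.1, 94.1, 79.5 and 92.4 CPM in wild-type replicates 1 to 4 and at 31.1, 50.2, 41.6 and 48.5 CPM in knockout replicates 1 to 4 and fell 2.12-fold (log2 −1.08 ± 0.16 SE). Aurkb, the kinase of the complex, fell 2.08-fold (log2 −1.05 ± 0.16 SE) over 58.3 to 66.7 CPM in wild type and 21.5 to 37.05 CPM in the knockout. In all 4 genes knockout replicate 1 was the lowest library and no knockout library reached a wild-type level. Sgo1, the shugoshin that protects centromeric cohesion and that the rule did not take, stood at 31.01, 35.9, 31.1 and 35.5 CPM in wild-type replicates 1 to 4 and at 10.04, 14.5, 14.3 and 16.4 CPM in knockout replicates 1 to 4; it was lower by 2.42-fold (log2 −1.27 ± 0.16 SE), with an edgeR adjusted p of 0.00108.

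Mitotic kinases and the Aurora A activator had the lowest median log2 fold change of the 8 roles, −1.27, and all 4 genes fell. Aurka, which matures centrosomes and spindle poles (chr2:172356190-172370886), stood at 93.02, 98.9, 79.6 and 93.8 CPM in wild-type replicates 1 to 4 and at 26.9, 42.96, 33.9 and 37.6 CPM in knockout replicates 1 to 4. It fell 2.58-fold (log2 −1.37 ± 0.15 SE). Tpx2, which activates and localises it, stood at 111, 105, 96.8 and 122 CPM in wild-type replicates 1 to 4 and at 32.8, 42.6, 50.2 and 50.6 CPM in knockout replicates 1 to 4 and fell 2.47-fold (log2 −1.30 ± 0.15 SE). In both genes the genotypes were separated by a wide gap. Melk, a kinase of dividing progenitors, stood at 66.2, 69.9, 57.1 and 64.5 CPM in wild-type replicates 1 to 4 and at 22.7, 31.6, 26.2 and 28.5 CPM in knockout replicates 1 to 4 and fell 2.36-fold (log2 −1.24 ± 0.12 SE). Plk1, which acts from mitotic entry to cytokinesis, stood at 142, 141, 130.2 and 146 CPM in wild-type replicates 1 to 4 and at 39.99, 67.3, 62.5 and 71.9 CPM in knockout replicates 1 to 4 and fell 2.31-fold (log2 −1.21 ± 0.17 SE). Knockout replicate 1 was the lowest library in all 4, and the highest knockout value of each gene stayed under the lowest wild-type value. Their edgeR adjusted p-values ran from 0.00108 to 0.00122.

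In the anaphase trigger, 2 of 3 genes fell. Cdc20, the activator of the anaphase-promoting complex that the checkpoint holds (chr4:118432901-118437343), stood at 142, 136, 108 and 128 CPM in wild-type replicates 1 to 4 and at 44.3, 56.7, 54.8 and 63.8 CPM in knockout replicates 1 to 4. It fell 2.35-fold (log2 −1.23 ± 0.14 SE), with an edgeR adjusted p of 0.00108. Espl1, separase, which cuts the cohesin ring, stood at 52.5, 49.6, 52.9 and 64.03 CPM in wild-type replicates 1 to 4 and at 16.05, 19.6, 23.3 and 29.6 CPM in knockout replicates 1 to 4 and fell 2.48-fold (log2 −1.31 ± 0.18 SE), with an edgeR adjusted p of 0.00121. In both, no knockout library reached the lowest wild-type one. Pttg1, securin, the inhibitor that Espl1 is freed from, stood at 20.6, 19.3, 18.8 and 16.5 CPM in wild-type replicates 1 to 4 and at 17.8, 16.8, 14.96 and 15.3 CPM in knockout replicates 1 to 4. Its groups overlapped, with a log2 difference of −0.21 ± 0.12 SE that did not pass the test (edgeR adjusted p = 0.185). The difference in fold between Pttg1 and Espl1 was not tested. Exons of Cdc20 overlap 53 bases of Elovl1 on the opposite strand.

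**Figure D3:**
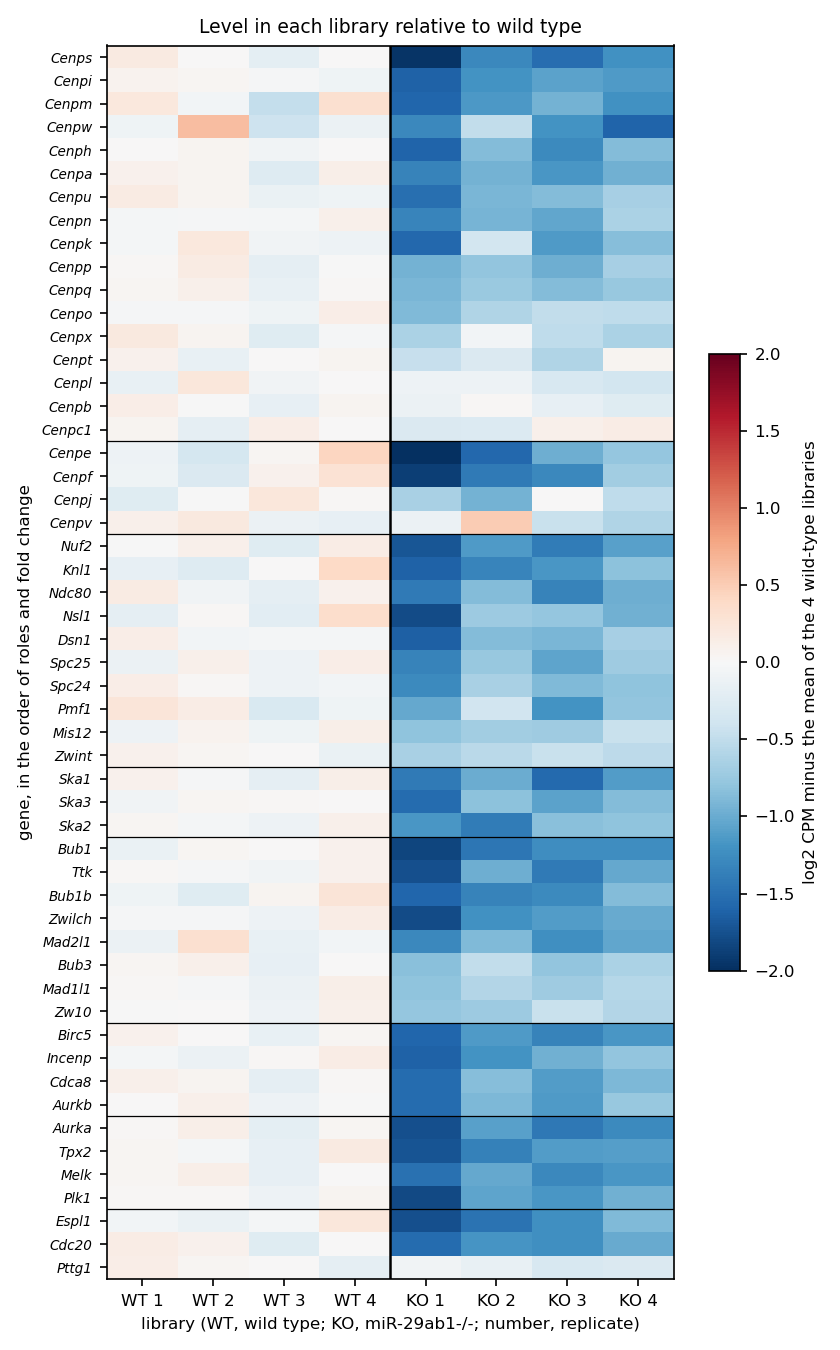
Level of each gene (rows, grouped by role) in each library (columns), as log2 CPM minus the mean of the 4 wild-type libraries; blue is lower and red higher. Knockout replicate 1 is the darkest column for most genes, and Cenpt, Cenpl, Cenpb, Cenpc1, Cenpv and Pttg1 stay pale in most libraries.

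Within each genotype, many of the genes shared the same lowest library. Knockout replicate 1 was the lowest knockout library in 42 of the 53 genes, and in 41 of the 46 that fell. The highest knockout library was replicate 4 in 24 genes and replicate 2 in 21. Among wild-type libraries replicate 3 was the lowest in 32 of the 53 genes and replicate 4 the highest in 23. Wild-type replicate 3 had the largest TMM factor of the 8 libraries, 1.19, which lowers all its CPM values. By FPKM it was not the lowest for some of these genes, such as Plk1 and Ttk, and still the lowest for others, such as Birc5 and Cdc20. The same counts over all tested genes were not taken, so these orders may not be particular to the 53 genes. Knockout replicate 1 also had the highest enterocyte sum, 100808 CPM, against 86891, 31218 and 46369.9 CPM in replicates 2 to 4. Without it the count of genes that fell was 45 and the median −0.99. What part the enterocyte share has in these levels was not tested.

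Levels of different genes can be set side by side only per transcript length, as FPKM. On that scale Birc5 was the most abundant of the 53 genes in wild type, at a mean of 125 FPKM, and Cenpj the least, at 2.50 FPKM. Cdc20, Cenpx, Pmf1 and Cenpb followed Birc5 at 84.8, 84.1, 83.05 and 82.4 FPKM. In the knockout the order at the top was another: Cenpb stood first at 62.7 FPKM, then Cenpx, Cenpv and Birc5 at 50.2, 46.8 and 42.2 FPKM. In single libraries Birc5 stood at 128, 124, 122 and 127 FPKM in wild type and 30.7, 43.9, 46.9 and 47.1 in the knockout. Cenpb stood at 85.8, 78.05, 79.03 and 86.6 FPKM in wild type and 54.99, 62.9, 70.8 and 62.1 in the knockout. Birc5 was thus above Cenpb in every wild-type library and below it in every knockout library.

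**Figure D4:**
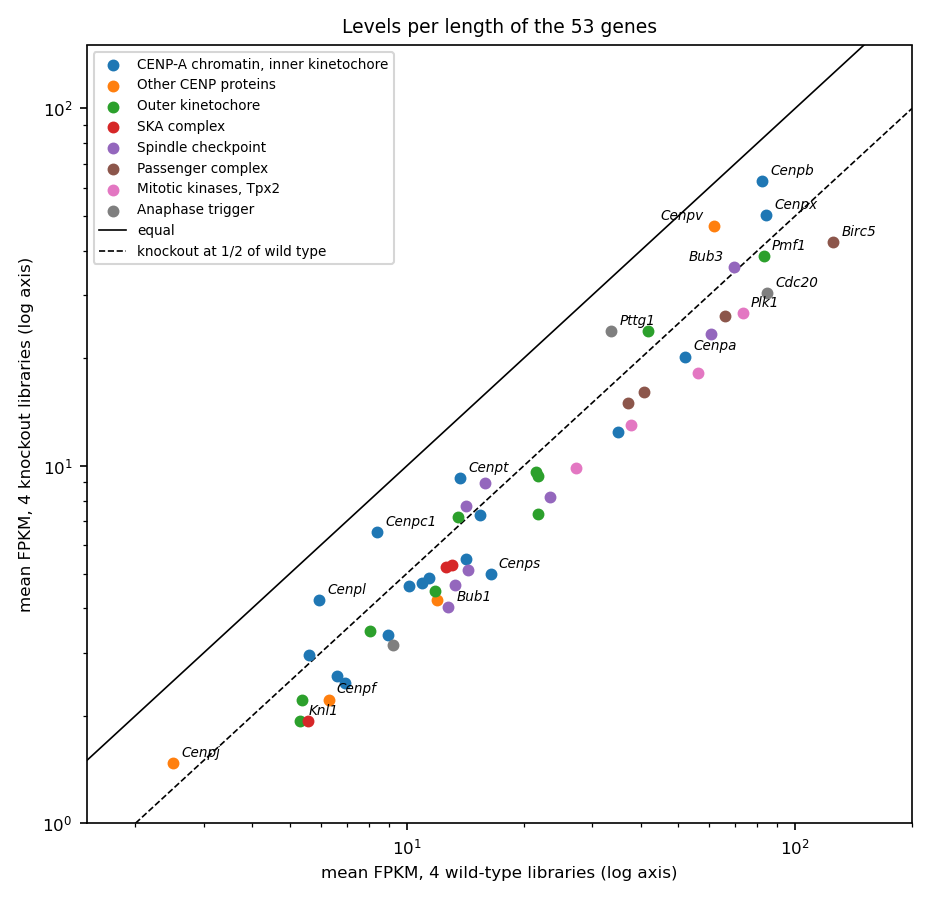
Mean FPKM in the knockout (y axis) against wild type (x axis), both log axes, 4 libraries per genotype, 1 point per gene coloured by role. Most points lie near or below the dashed line of 1/2 the wild-type level. Cenpb, Cenpc1, Cenpl, Cenpt, Cenpv and Pttg1 lie between it and the line of equal levels. So do Cenpj and some genes that fell, such as Cenpx and Zwint.

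DNA replication genes, which serve the preceding S phase of the same dividing cells, were set beside the 53 genes. All 26 on that list fell, with a median log2 fold change of −1.10. Mcm3 of the replicative helicase, Gins1 of its GINS partner and the DNA ligase Lig1 fell 2.42-fold, 2.46-fold and 2.18-fold. Summed CPM of the replication genes went from 2957 ± 185 to 1412 ± 248 (SD, n = 4), and that of all 53 genes from 2577 ± 146 to 1369.5 ± 167. As a share of the replication sum the 53 genes stood at 87.2, 88.5, 87.3 and 85.8 percent in the wild-type libraries. Knockout shares were 105, 93.9, 99.8 and 92.3 percent, higher with no overlap. The share of the 7 genes that did not pass the test averaged 22.2 percent over knockout libraries, against 11.5 percent over wild-type ones. These 7 were set apart by their small folds in the same data, and the replication sum fell. Their higher share therefore follows from that sorting. The 46 genes that fell were sorted in the same way. For the 46 genes that fell, wild-type shares were 75.2, 76.8, 75.7 and 75.1 percent. Knockout shares of these 46 genes were 77.2, 72.1, 78.3 and 74.7 percent, which overlapped the wild-type range. By role, the mitotic kinases with Tpx2 stood at 13.6, 14.1, 13.4 and 13.5 percent of the replication sum in the wild-type libraries and at 11.3, 11.6, 12.7 and 11.7 percent in the knockout libraries. These ranges did not overlap, and the knockout was the lower. The inner kinetochore stood at 18.6, 18.2, 17.3 and 17.2 percent in wild type and 31.9, 25.9, 27.2 and 23.2 percent in the knockout, where knockout was the higher. Shares of the outer kinetochore went from 11.9, 12.1, 11.6 and 11.3 percent in wild type to 14.5, 13.3, 13.3 and 12.8 percent in the knockout, and those of the CENP proteins outside the inner kinetochore from 6.45, 6.15, 7.57 and 7.53 to 8.37, 8.05, 8.35 and 7.75 percent. Both were higher in every knockout library, and the shares of the other 4 roles overlapped between genotypes. Cenpb alone carried 199.6 of the 527 CPM of the inner kinetochore in wild type. These shares are descriptions with no test.

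**Figure D5:**
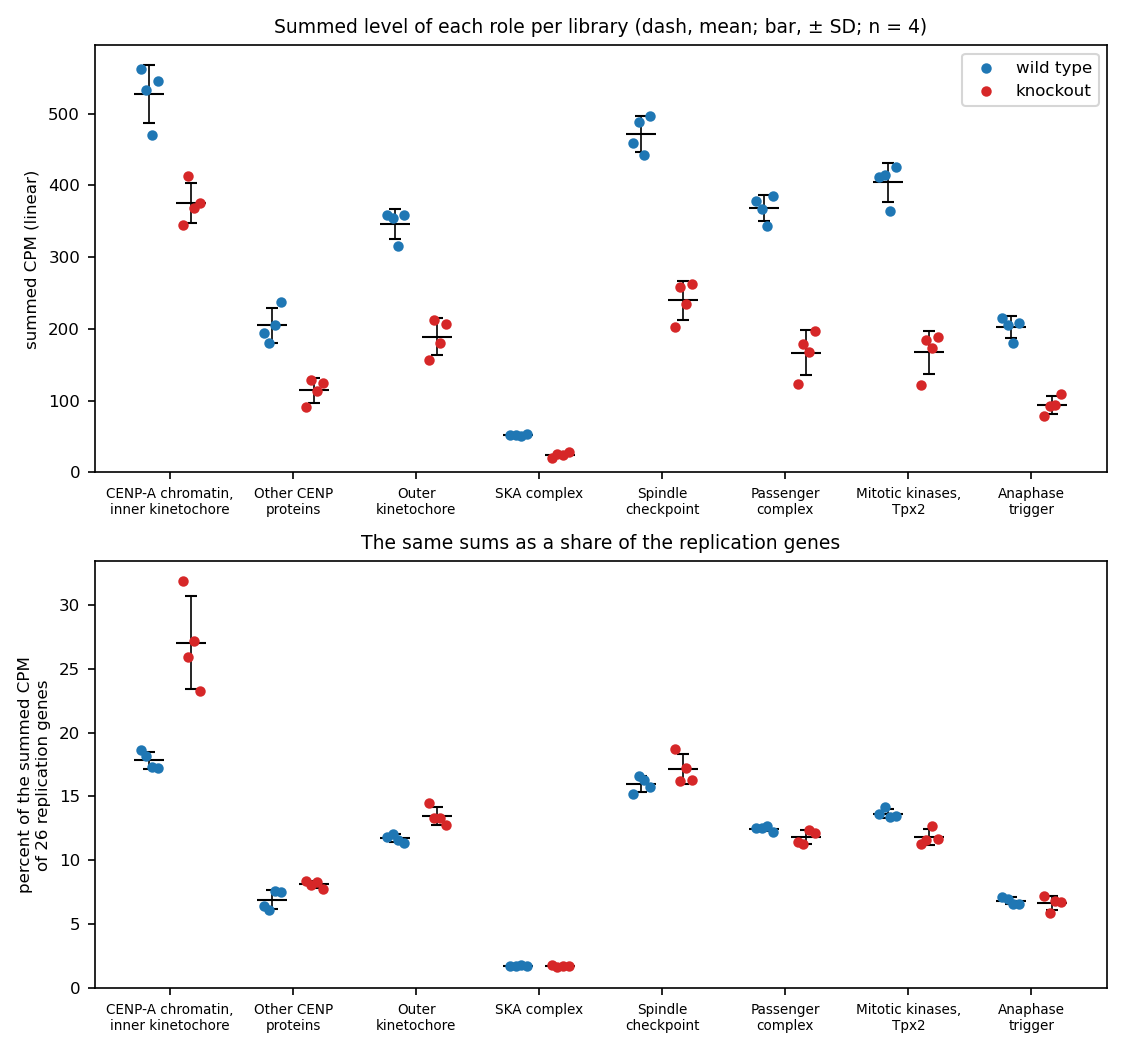
Summed CPM of each role per library (upper panel) and the same sums as a percent of the summed CPM of 26 replication genes (lower panel); points are libraries, dashes means and bars ± SD of 4 libraries. All 8 sums are lower in every knockout library, while as a share of replication genes the inner kinetochore, the outer kinetochore and the CENP proteins outside the inner kinetochore are higher in every knockout library, the mitotic kinases are lower, and the other 4 roles overlap.

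Other genes of the pathway, from 5 lists, showed falls in 58 of 75 tested genes and rises in 2, with a median log2 fold change of −0.81. Of 26 spindle assembly factors 24 fell and 0 rose, with a median of −1.02. Cep55 and Prc1, both needed for cytokinesis, fell 2.78-fold (log2 −1.48 ± 0.18 SE) and 2.49-fold (log2 −1.32 ± 0.16 SE), and the kinesin Kif2c, which takes microtubules apart at centromeres, 2.45-fold (log2 −1.30 ± 0.14 SE). Of 9 checkpoint partners 6 fell. Kntc1, the RZZ subunit that joins Zwilch and Zw10, had a mean that fell from 32.9 ± 4.10 to 12.5 ± 3.81 CPM (2.64-fold). Trip13, the ATPase that disassembles checkpoint complexes, and Spdl1, which brings dynein to kinetochores, fell 2.39-fold and 2.32-fold. Of 7 CENP-A deposition genes 6 fell, among them the histone chaperone genes Rbbp7, at 1.81-fold, and Npm1, at 2.21-fold. Npm1 has processed copies in the genome that could share its reads. Hjurp, the chaperone specific to CENP-A, was the exception, at 129 to 154 CPM in wild type and 116 to 154 CPM in the knockout (log2 −0.13, edgeR adjusted p = 0.411).

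Of 19 genes of the anaphase-promoting complex and its regulators 14 fell, with a median of −0.57. Its ubiquitin-conjugating enzymes Ube2c and Ube2s fell 1.96-fold and 2.01-fold, and its core subunit Cdc16 1.66-fold. Anapc2, Anapc11, Anapc13, Anapc16 and the activator Fzr1 did not pass the test. Of 14 other mitotic kinases tested, 8 fell and 2 rose. Cdk1, which drives mitotic entry, fell 2.25-fold (log2 −1.17 ± 0.15 SE), Nek2, which splits centrosomes, 2.39-fold (log2 −1.26 ± 0.16 SE), and Pbk 2.15-fold (log2 −1.10 ± 0.17 SE). Stk10, a kinase known for phosphorylating ezrin-type proteins and Plk1, stood at 20.4, 17.8, 13.2 and 5.18 CPM in wild-type replicates 1 to 4 and at 106, 65.1, 56.6 and 48.5 CPM in knockout replicates 1 to 4. It was higher in every knockout library, with a log2 fold change of 2.30 ± 0.41 SE (edgeR adjusted p = 0.00227). Like the enterocyte sums, Stk10 was highest in knockout replicates 1 and 2, and the part of enterocytes in its rise was not tested. Nek6, which acts on the kinesin Kif11, stood at 75.8, 78.7, 67.5 and 68.7 CPM in wild-type replicates 1 to 4 and at 205, 179, 104 and 87.8 CPM in knockout replicates 1 to 4. It was also higher in each knockout library, by log2 0.98 ± 0.26 SE (edgeR adjusted p = 0.0124), most in replicates 1 and 2, the libraries with the highest enterocyte sums; the part of enterocytes in this was not tested. Adjusted p-values of the named pathway genes that fell were between 0.00108 and 0.00164 (edgeR).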

How the data were processed

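RNA-seq of small intestinal crypts gave 8 libraries, 4 wild-type and 4 miR-29ab1-/-, each taken 3 days after irradiation. Per the submitters' processing notes, HISAT2 and DESeq2 were used, with no role or version stated. How reads were counted, on which build and annotation and with which strand setting, is not given in the sources used here. Per the file headers, the authors deposited counts for every gene; since 8.04 to 9.18 percent of values were not whole, they were treated as estimated counts, as deposited by the authors, and rounded. A further set of columns that the authors deposited was taken as FPKM, since FPKM over count followed the reciprocal library total within 1.05 percent.

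The main test was the quasi-likelihood test of edgeR (version 4.0.16, under R 4.3.3) on genotype alone, after filterByExpr and with TMM factors. Adjustment was by Benjamini-Hochberg over 12908 genes with a threshold of 0.05. An SE is the log2 fold change over the square root of F. Alternatives used DESeq2 1.42.0, limma 3.58.1 on log2(FPKM + 1) and log2(FPKM + 0.1), upper-quartile and total-count scaling, no low-count filter, a mean of at least 50 counts, a replicate block and leaving out each library. The test was tried on simulated counts first.

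Beyond calling the samples mice, the labels do not describe the replicates, and the p-values reflect only how these 8 libraries vary. The closest libraries of a group still differed by 6.42 (wild type) and 43.8 (knockout) times the sampling variance. Same-numbered libraries of the 2 genotypes deviated together (correlation 0.311 to 0.524, other pairs −0.478 to 0.447), and 7 of 8 correlated best with their own number. The numbers were therefore used as a possible pairing in the replicate block, 1 of the alternative fits. The main test, its SE and its calls ignored them, and no label explains the numbering.

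The members, their roles and every list were chosen with earlier results of these data known. The genes named with full values are, in each role, the 3 with the smallest p, those not called, and those with the extreme FPKM and fold; in each other list, the 3 with the smallest p and those called against the rest. One gene that this rule takes is not reported here. Other genes named, the motifs, the microRNA seed search, the exon overlaps and 2 sets of left-out libraries were chosen after the values were seen. Promoters and microRNAs come from RefSeq (GRCm38.p6), with windows for 46 of the 53 genes, and 3′ UTRs and exons from GENCODE M21 (GRCm38).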

Additional observations from a re-analysis of the deposited data

Results flagged for a closer look

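In 118 groups of 4 libraries, formed by the named genes and the role sums in each genotype, 2 held a library that lay far from the other 3; chance alone gives such a gap in about 5 percent of groups, or 1 in 20. Both were wild-type replicate 3. Its Cdk1 level was 85.2 CPM, against 94.8 to 96.4 CPM in the other 3 wild-type libraries. Its summed level of the 10 outer kinetochore genes was 316 CPM, against 355 to 358 CPM in the others. Wild-type replicate 3 had the largest TMM factor of the 8 libraries, 1.19, against 1.04 to 1.12 in the other wild-type libraries. A larger factor lowers every CPM of a library. Scaled by library totals alone, replicate 3 was not the lowest wild-type library in either value, so both gaps turned on the scaling.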

How the results depend on the processing

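Over the 19 settings, 43 of the 53 genes were called lower in each, 9 in some and Cenpc1 in none, and none was called higher in any. The count of 46 lower stayed between 45 and 47 when each library was left out in turn, and the log2 median between −1.21 and −0.99. It was 50 with total counts, 51 and 50 with limma on log2(FPKM + 1) and log2(FPKM + 0.1), 43 in replicates 1 to 3 and 44 without the 3 libraries of high fibroblast sums. The median of −1.05 moved by more than the spread between libraries to −1.31 with total counts and to −1.35 with limma on log2(FPKM + 0.1). With a replicate block 47 genes were called lower, Cenpj being the one added; pairing changed no other call among the 53, and the block gave 64 in place of 60 calls on the pathway lists and 7226 in place of 6105 over all genes. Leaving out each library gave 4988 to 6328 calls over all genes, 45 to 47 genes without overlap, 57 to 62 pathway calls and a ratio of 1.09 to 1.14 (1.12 with all) between the change of the 53 summed genes and of the replication sum. Of calls over all genes, 48.7 percent were lower, 65.8 percent with total counts and 68.0 and 67.8 percent with limma on FPKM. Cenpx was called in 11 settings and Cenpk and Cenpw in 17; the cause was not tested. No result changed sign past the threshold. Genes with few counts, such as Cenpw, Cenpk and Cenpp, limit what depth can show.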
